A study of Mus musculus with 6 samples.

Results

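The proteasome genes of differentiating C2C12 cells were examined on 6 Affymetrix mouse arrays, 3 from cells given a short hairpin RNA (shRNA) against PRDM2 and 3 from cells given one against GFP. A probe set was a member if the platform annotation gave it 1 gene whose symbol begins with Psma, Psmb, Psmc, Psmd, Psme or Psmf and a digit, leaving out the immunoproteasome subunits Psmb8, Psmb9 and Psmb10. This took in 91 of 45033 probe sets, naming 42 of 18192 genes. A probe set shared by Psme2 and Psme2b was left out by the same rule. The prefix also took in Psmc3ip and Psme3ip1, which encode partners of proteasome proteins and are not subunits, so 40 of the 42 genes encode subunits, activators, an inhibitor or assembly chaperones.

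C2C12 is an established line of mouse myoblasts, cells that stop dividing and fuse into myotubes once serum is lowered. All cells were C2C12 transfected with an shRNA construct and kept in Dulbecco's modified Eagle medium with 2% horse serum for 28 hours. The arrays labelled PRDM2 knockdown and the arrays labelled GFP control therefore share line, medium and time and differ by the shRNA target. The labels call the 3 samples of each group biological replicates, and the sources used here do not say whether each came from a pool or a clone of transfected cells.

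The proteasome is the protease that degrades ubiquitin-tagged proteins. Its 20S core is a barrel of alpha rings, which gate the channel, around beta rings, which carry the catalytic sites. The 19S regulatory particle caps the barrel: its base holds a ring of ATPases that unfolds the substrate, and its lid removes the ubiquitin chain. Other caps, the activators PA28 and PA200, open the barrel without ATP. In skeletal muscle the system breaks down myofibrillar proteins, and blocking it is known to disturb myoblast fusion. Subunit genes are commonly regulated as a group, with Nfe2l1 as a transcription factor that raises them when proteasome activity is short.

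The target and the arrays were checked first. Prdm2 read 6.67, 6.32 and 6.02 log2 units on the arrays labelled PRDM2 knockdown 1, 2 and 3, against 6.19, 6.42 and 5.94 on GFP control arrays 1, 2 and 3, a log2 fold change of 0.15 (SE 0.19, adjusted p = 1.00 with limma). These values are from the brightest Prdm2 probe set, and the others gave 0.07 and 0.12, so none was lower in the knockdown group. The mRNA of the target thus gave no check of the labels, and higher and lower are used here by label alone. All 9 skeletal muscle markers read above 16 units on every array, with summed intensities of 10938 to 11722 in the knockdown group and 10602 to 11219 in the control group. One of the 9, the determination factor Myf5, had groups that did not overlap, against 7.17% of all genes. Myf5 had a log2 fold change of -1.32 (SE 0.46, adjusted p = 1.00 with limma) on all arrays. Without GFP control array 2 it was -1.90 (SE 0.11, adjusted p = 0.0056), in a fit where 1.6% of all genes passed 0.05. Its part in the proteasome values was not tested. Among 11 measured markers of macrophages, endothelium, adipocytes and neurons, only Adgre1 and Csf1r, both macrophage markers, read above 16 units throughout, while Ptprc and Cd68 did so on no array. The endothelial marker Cdh5 also had groups that did not overlap, but read at most 6.2 units. The 4 macrophage markers summed to 77.5 to 172 units in the knockdown group and 87.9 to 154 units in the control group. Median intensities of the arrays lay between 10.7 and 11.4 units. GFP control array 2 was far from GFP control arrays 1 and 3. Over the brightest 25% of genes the median absolute deviation of its log2 difference was 0.37 from GFP control array 1 and 0.35 from GFP control array 3, but 0.07 from PRDM2 knockdown array 2. Results are therefore given with and without it.

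On all 6 arrays no proteasome gene was called different between the groups, and neither was any other gene. Most members could be bounded within 0.5 log2 units of 0, as could most genes. With limma on all 6 arrays, 0 of the 42 genes passed an adjusted p of 0.05, against 0% of all 18192 genes, and 0 of 42 passed an unadjusted p of 0.05, against 3.3% of all genes. The median log2 fold change over the 42 genes was 0.0056, with 21 on the higher and 21 on the lower side, beside a median of -0.0033 over all genes. Values on this scale are log2(intensity + 16), and a fold change is the mean of the knockdown arrays minus the mean of the control arrays. The single genes lay between -0.27 and 0.25, with standard errors of 0.07 to 0.20. For 36 of the 42 genes the 95% interval of the difference lay within 0.5 log2 units of 0, which is 1.41-fold in either direction, and 75.6% of all genes met the same bound. The exceptions were Psma4, Psmc6, Psmd9, Psme1, Psme3 and Psmc3ip. In bulk RNA fewer cells of a type and less RNA per cell cannot be told apart.

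**Figure D1:**
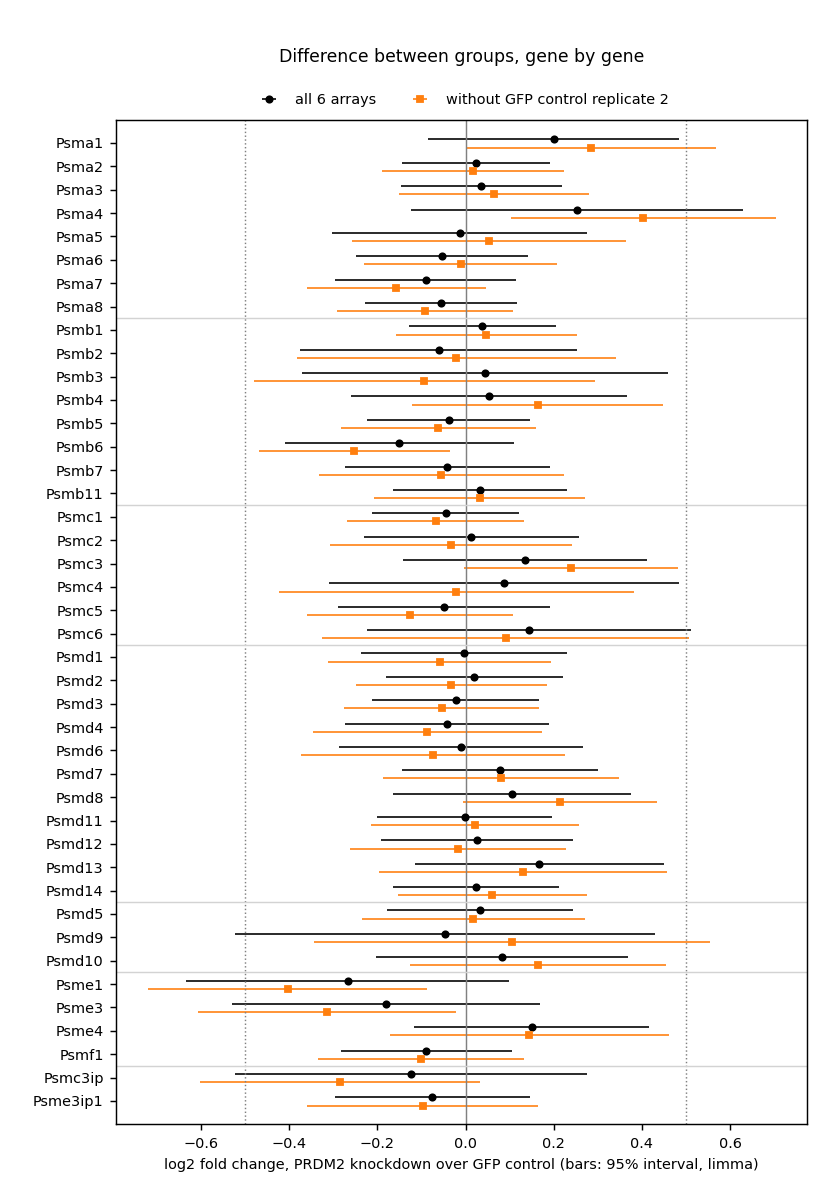
Log2 fold change of each of the 42 genes, PRDM2 knockdown over GFP control, with its 95% interval from limma, grouped by role from the 20S alpha ring at the top. Black circles use all 6 arrays, orange squares leave out GFP control array 2, and dotted lines mark 0.5 log2 units; every black interval includes 0.

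Without GFP control array 2 the picture for single genes widened but no call was made. Again 0 of 42 genes passed an adjusted p of 0.05 (limma), against 1.6% of all genes, and the lowest adjusted p among the 42 was 0.22. At an unadjusted p of 0.05 there were 5 of 42, or 11.9%, against 13.4% of all genes. These 5 were the core subunits Psma1, Psma4 and Psmb6 and the activators Psme1 and Psme3. The median over the 42 genes was -0.019, with 19 on the higher side. Groups that did not overlap were found for 1 of 42 genes with all 6 arrays, against 7.17% of all genes. That gene was higher in the knockdown group, as 2.93% of all genes were, and 0 of 42 were lower, against 4.24% of all genes. Without GFP control array 2 there were 13 of 42, against 30.2% of all genes, with 5 higher, against 14.2%, and 8 lower, against 16%. Without both arrays numbered 2, 0 of 42 passed an adjusted p of 0.05, against 0.66% of all genes, and adding the block of replicate numbers to that fit left 0 of 42, against 3.96%. At an unadjusted p of 0.05 the blocked fit without them had 6 of 42, against 17.8% of all genes.

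**Figure D2:**
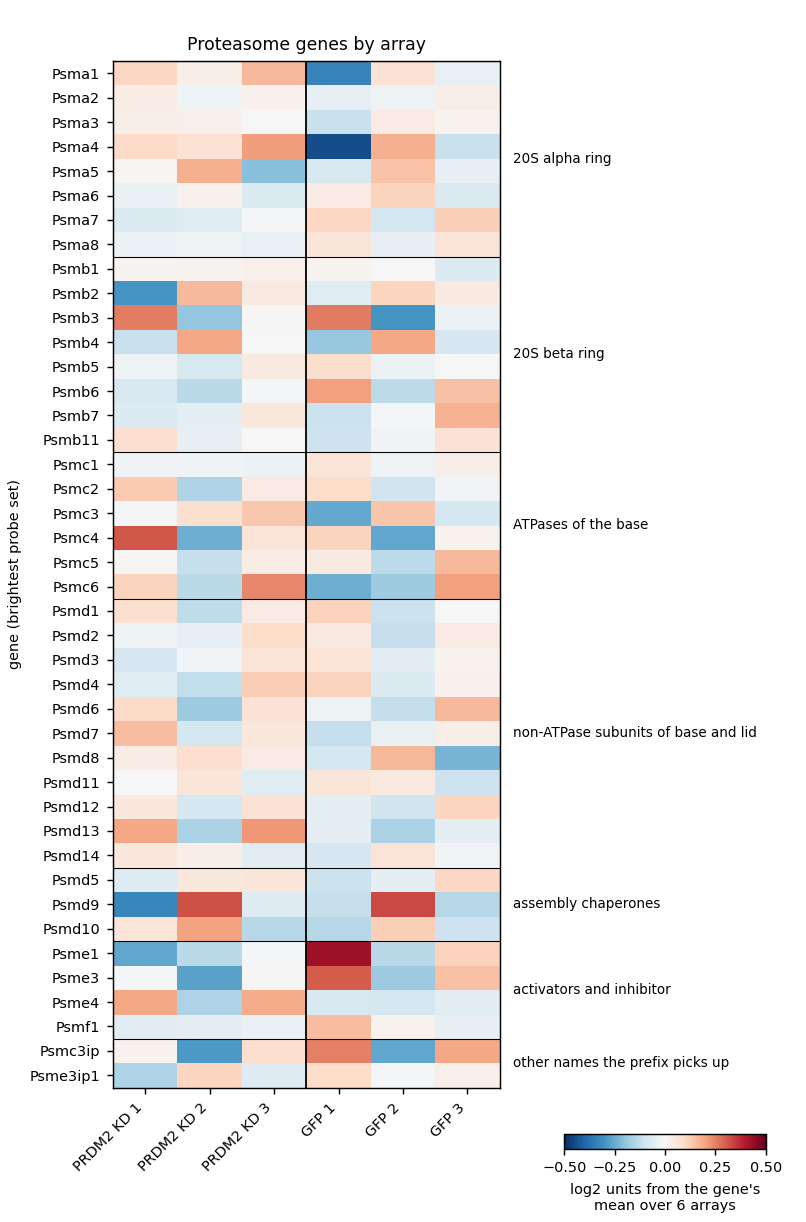
Each row is a proteasome gene and each column an array, PRDM2 knockdown arrays left of the line and GFP control arrays right of it. Colour gives the distance of the log2 value from the gene's mean over the 6 arrays. Deviations reach 0.44 log2 units, for Psma4 on GFP control array 1, and the columns numbered 2 resemble each other across the line.

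The 20S alpha ring, which gates the barrel, had 8 measured genes, 4 of them higher and 4 lower in the knockdown group by sign, and their median log2 fold change was 0.0055. Psma4 had the highest fold change of all 42 genes. It read 9.11, 9.09 and 9.22 log2 units on PRDM2 knockdown arrays 1, 2 and 3, against 8.57, 9.19 and 8.90 on GFP control arrays 1, 2 and 3. The knockdown arrays lay close together, and GFP control array 2 fell among them, while GFP control array 1 was low. That gave a log2 fold change of 0.25 (SE 0.16, 95% interval -0.12 to 0.63, adjusted p = 1.00 with limma), and 0.40 (SE 0.12, adjusted p = 0.22) without GFP control array 2, but 0.09 without GFP control array 1. Psma1, another subunit of the ring, followed the same arrays, with 9.04, 8.97 and 9.09 in the knockdown group and 8.60, 9.003 and 8.90 in the control group. It had a log2 fold change of 0.20 (SE 0.12, 95% interval -0.08 to 0.48), or 0.08 without GFP control array 1, and its groups overlapped only through GFP control array 2. Psma7 stood on the other side at -0.09 (SE 0.09), with knockdown arrays at 8.93 to 8.98 and control arrays at 8.91 to 9.11. Psma2 and Psma3 varied little, with ranges of 9.65 to 9.71 and 10.17 to 10.20 in the knockdown group and 9.63 to 9.70 and 10.06 to 10.21 in the control group. Psma8, the alpha subunit of the testis proteasome, read at most 2.2 units on any array, near the floor of the scale.

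The 20S beta ring holds the protease sites and likewise had 4 genes on each side of 0 among 8, with a median of -0.0031. Psmb5, which carries the chymotrypsin-like site, read 9.50, 9.45 and 9.57 on PRDM2 knockdown arrays, against 9.62, 9.50 and 9.52 on GFP control arrays. The groups overlapped, with a log2 fold change of -0.04 (SE 0.08, 95% interval -0.22 to 0.15). Psmb7, with the trypsin-like site, read 9.79, 9.82 and 9.92 in the knockdown group and 9.76, 9.86 and 10.04 in the control group, a log2 fold change of -0.04 (SE 0.10, 95% interval -0.27 to 0.19). Its control arrays spanned the whole knockdown range. Psmb6, with the caspase-like site, was the lowest of the ring at -0.15 (SE 0.11, 95% interval -0.41 to 0.11, adjusted p = 1.00 with limma). It read 9.51, 9.45 and 9.58 in the knockdown group, against 9.80, 9.46 and 9.74 in the control group, so GFP control arrays 1 and 3 were high and GFP control array 2 lay with the knockdown arrays. Without that array the value was -0.25 (SE 0.09, adjusted p = 0.29), and without GFP control array 1 it was -0.08.

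Psmb1, a beta subunit without protease activity, was the 1 gene of 42 whose groups did not overlap on all 6 arrays, and it is named for that reason after its values were seen. It was also among the steadiest genes, at 9.76, 9.76 and 9.77 log2 units in the knockdown group and 9.76, 9.74 and 9.68 in the control group. The gap between the groups was smaller than the last digit given here. Its log2 fold change of 0.04 (SE 0.07, 95% interval -0.13 to 0.20) was within the spread of the arrays. Psmb11, the beta subunit of the thymus proteasome, read at most 4.8 units. The immunoproteasome subunits that replace the catalytic ones under interferon had 3 measured genes, with log2 fold changes of 0.02 to 0.04. Of these, 0 of 3 passed an adjusted p of 0.05 (limma), against 0% of all genes. Psmb9 read at most 6.8 units, near the floor. Psmb8 was loosely bounded, with a 95% interval of -0.48 to 0.52, and stood at -0.18 (SE 0.16) without GFP control array 2.

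**Figure D3:**
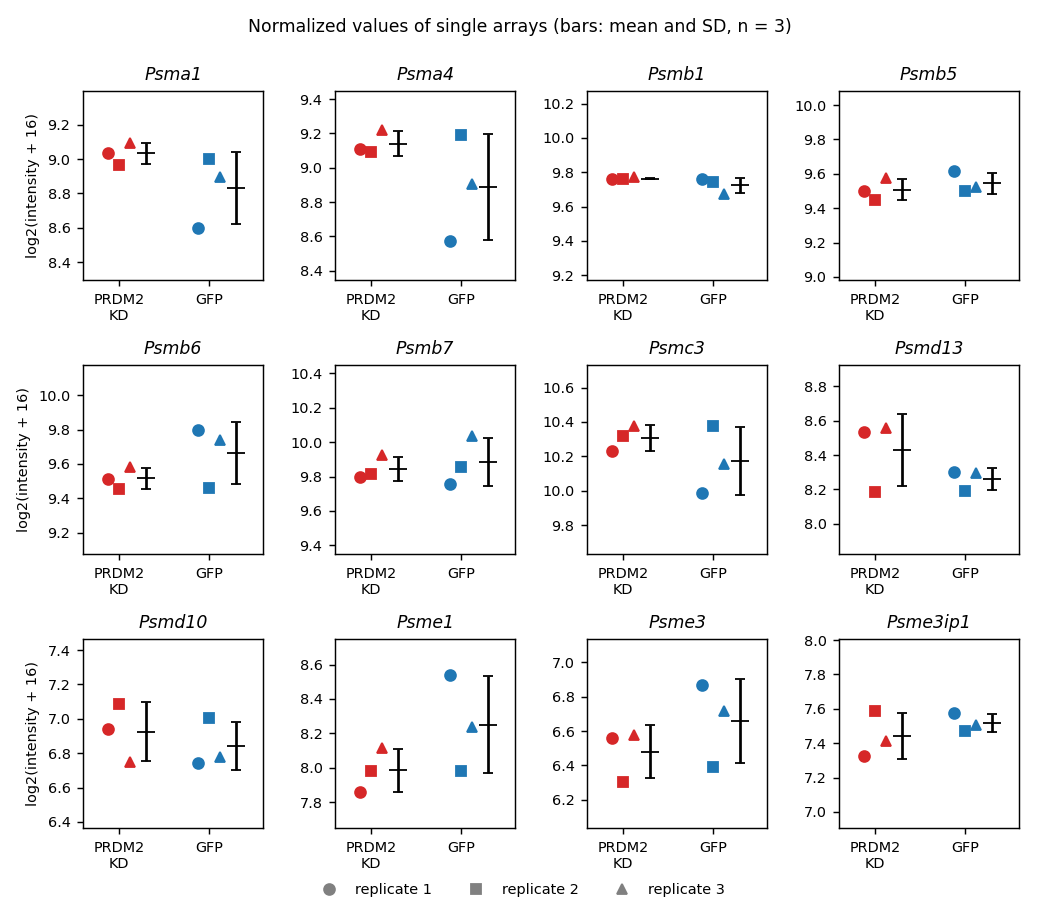
Normalized log2 values of 12 genes on the single arrays, PRDM2 knockdown in red left of GFP control in blue, with the marker giving the replicate number and the bars the mean and SD of 3 arrays. Every panel spans 1.1 log2 units. In Psma1, Psma4, Psmb6, Psmc3, Psmd10, Psmd13, Psme1 and Psme3 the control square, array 2, lies with or beyond the knockdown values, away from the other control arrays.

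The 19S base and lid were centred near 0 as well, and their side of 0 depended on GFP control array 2. The ATPases had 4 of 6 genes on the higher side and a median of 0.05 with all arrays, but 2 of 6 and a median of -0.03 without that array. The non-ATPase subunits had 6 of 11 on the higher side and a median of 0.02, but 5 of 11 and a median of -0.02 without it. Psmc3, the ATPase with the smallest p, read 10.23, 10.32 and 10.37 on PRDM2 knockdown arrays, against 9.98, 10.38 and 10.15 on GFP control arrays. It had a log2 fold change of 0.14 (SE 0.12, 95% interval -0.14 to 0.41), and 0.24 (SE 0.10, adjusted p = 0.38 with limma) without GFP control array 2, the highest of the 6, but 0.04 without GFP control array 1. Psmc6, another ATPase, stood at 0.14 (SE 0.15) with knockdown arrays at 9.14 to 9.52 and control arrays at 9.03 to 9.48, and between 0.06 and 0.28 with 1 array left out. Psmc1 varied least, at 8.59 to 8.60 in the knockdown group and 8.59 to 8.68 in the control group.

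Among the non-ATPase subunits Psmd13, of the lid, had the highest fold change, 0.17 (SE 0.12, 95% interval -0.12 to 0.45). It read 8.54, 8.19 and 8.56 in the knockdown group and 8.30, 8.19 and 8.29 in the control group. Both arrays numbered 2 read the same, and only knockdown arrays 1 and 3 were above every control array. The value was 0.29 without knockdown array 2 and 0.10 without knockdown array 3. Psmd8 stood at 0.11 (SE 0.11) with all arrays and at 0.21 (SE 0.09, adjusted p = 0.39) without GFP control array 2, but at 0.016 without GFP control array 3. Psmd14, the lid's deubiquitinase, read 9.23 to 9.33 in the knockdown group and 9.19 to 9.34 in the control group. The ubiquitin receptor Psmd4 read 9.32 to 9.56 in the knockdown group and 9.37 to 9.55 in the control group. For all 11 non-ATPase subunits the 95% interval lay within 0.5 log2 units of 0.

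The 3 chaperones that help to assemble the base had log2 fold changes between -0.05 and 0.08, with 2 of 3 on the higher side and 3 of 3, with a median of 0.11, without GFP control array 2. Psmd10, also known as gankyrin, read 6.94, 7.09 and 6.75 in the knockdown group and 6.74, 7.004 and 6.78 in the control group, a log2 fold change of 0.08 (SE 0.12, 95% interval -0.20 to 0.37). Psmd9 had the widest spread of the 42 genes, with an SD of 0.27 over the 6 arrays. It read 5.85, 6.50 and 6.11 in the knockdown group, against 6.06, 6.51 and 6.03 in the control group, so the arrays numbered 2 were the highest of their group in both.

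With all arrays the activators and the inhibitor lay furthest from 0 of the roles, with a median of -0.13 over 4 genes and 3 of them on the lower side. Without GFP control array 2 again 3 were lower, and the median was -0.21. This place rested in part on GFP control array 1. On that array the genes' median deviation from their own means over 6 arrays was 0.23, the largest of any array. Without it Psme1 and Psme3 came nearer to 0, as given below. Psme1, the alpha subunit of the interferon-inducible PA28 cap, had the lowest fold change of the 42 genes. It read 7.86, 7.98 and 8.11 log2 units on PRDM2 knockdown arrays 1, 2 and 3, against 8.54, 7.98 and 8.23 on GFP control arrays 1, 2 and 3. GFP control array 1 was far above the rest, and GFP control array 2 fell inside the knockdown range. This is a log2 fold change of -0.27 (SE 0.15, 95% interval -0.63 to 0.10, adjusted p = 1.00 with limma), and -0.40 (SE 0.13, adjusted p = 0.25) without GFP control array 2, but -0.12 without GFP control array 1. Psme3, which forms the nuclear PA28 cap, stood at -0.18 (SE 0.15), with 6.56, 6.30 and 6.58 in the knockdown group and 6.87, 6.39 and 6.72 in the control group. Without GFP control array 2 it stood at -0.31 (SE 0.12, adjusted p = 0.33), without GFP control array 1 at -0.07 and without knockdown array 2 at -0.09. Its second probe set gave 0.05 with all arrays. Psme4, the PA200 activator, stood on the other side at 0.15 (SE 0.11), with knockdown arrays at 8.53 to 8.88 and control arrays at 8.60 to 8.62, and between 0.09 and 0.27 with 1 array left out. The inhibitor Psmf1 stood at -0.09 (SE 0.08).

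Both genes that share only the prefix were on the lower side. Psme3ip1, a binding partner of Psme3, read 7.32, 7.59 and 7.41 in the knockdown group and 7.57, 7.47 and 7.51 in the control group, a log2 fold change of -0.08 (SE 0.09, 95% interval -0.30 to 0.15). Psmc3ip, a recombination factor of meiosis, stood at -0.12 (SE 0.17), with values of 5.39 to 5.76 in the knockdown group and 5.42 to 5.93 in the control group, and between -0.28 and -0.01 with 1 array left out. Without these 2 genes the median over the remaining 40 was 0.017.

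Arrays numbered 2, and less closely those numbered 3, were alike across the groups in their proteasome genes, and those numbered 1 were not. Over the 42 genes the median absolute deviation of the log2 difference was 0.06 between PRDM2 knockdown array 2 and GFP control array 2, the smallest among the 15 pairs of arrays, and 0.11 between the arrays numbered 3, the next smallest. It was 0.22 between the arrays numbered 1, the next to largest. The differences between knockdown and control arrays of number 2 stayed within 0.11 log2 units for every member, with 20 of 42 above 0. For number 1 they reached 0.68 in size, for Psme1, and for number 3 they reached 0.32, for Psma4, with 22 of 42 above 0 in each. In 7 of 42 genes all 3 differences had the same sign, 4 higher and 3 lower, against 31% of all genes.

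**Figure D4:**
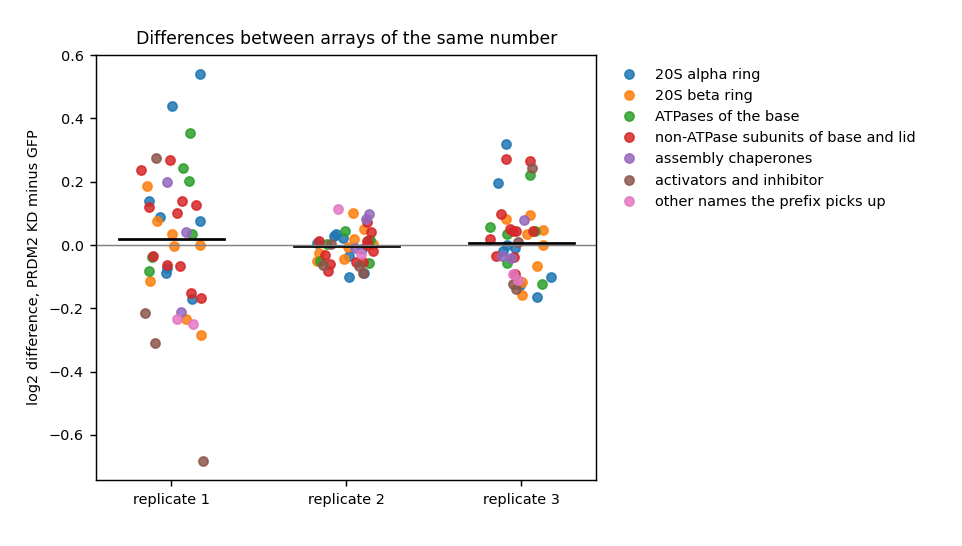
Log2 difference of each of the 42 genes between the PRDM2 knockdown array and the GFP control array of the same number, coloured by role, with a black bar at the median. Medians lie at 0.018, -0.0031 and 0.0054 for numbers 1, 2 and 3, and the scatter is narrowest for number 2.

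The brightest probe sets of Psmb3, Psmb4 and Psmc4 show how number and value went together. Psmb3, of the beta ring, read 9.92, 9.47 and 9.67 on knockdown arrays 1, 2 and 3, against 9.93, 9.37 and 9.64 on control arrays 1, 2 and 3, so the order of the numbers was the same in both groups. Psmc4, an ATPase, had the same order, at 9.10, 8.55 and 8.86 in the knockdown group and 8.90, 8.53 and 8.81 in the control group. Psmb4, another beta subunit, had the opposite order, highest on the arrays numbered 2, at 9.83, 10.14 and 9.94 in the knockdown group and 9.75, 10.14 and 9.86 in the control group. The second probe set of Psmb3 shared no order between the groups. It read 9.47, 9.42 and 9.36 in the knockdown group and 9.48, 9.38 and 9.44 in the control group. That of Psmc4 was again lowest on the arrays numbered 2, and that of Psmb4 is given below. With the replicate number as a block, 0 of 42 genes passed an adjusted p of 0.05 (limma), against 0% of all genes, 0 of 42 passed an unadjusted p of 0.05, against 9.01% of all genes, and the lowest adjusted p among the 42 was 0.55. Over the 6 arrays, 36 members fell among the brightest 25% of genes, with a median SD of 0.11 log2 units, beside 0.17 for all 4548 genes of that brightness.

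Most members were bright enough to be measured. On every array 66 of the 91 probe sets and 40 of the 42 genes, by their brightest probe set, read above 16 units, the exceptions being Psma8 and Psmb11. For 19 genes a further probe set was that bright, 26 in all, and 20 of the 26 had the sign of the gene's brightest probe set. The 6 of opposite sign belonged to Psmb3, Psmb4, Psmc1, Psmc6, Psmd11 and Psme3. In limma fitted to all 45033 probe sets, 0 of the 91 passed an adjusted p of 0.05, against 0% of all, and 0 passed an unadjusted p of 0.05, against 2.94% of all. The brightest probe sets of Psma6, Psmc2, Psmd11 and Psme4 carry the suffix _x_at or _s_at, which Affymetrix gives to probe sets that can also match other transcripts, so their values are less certain.

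**Figure D5:**
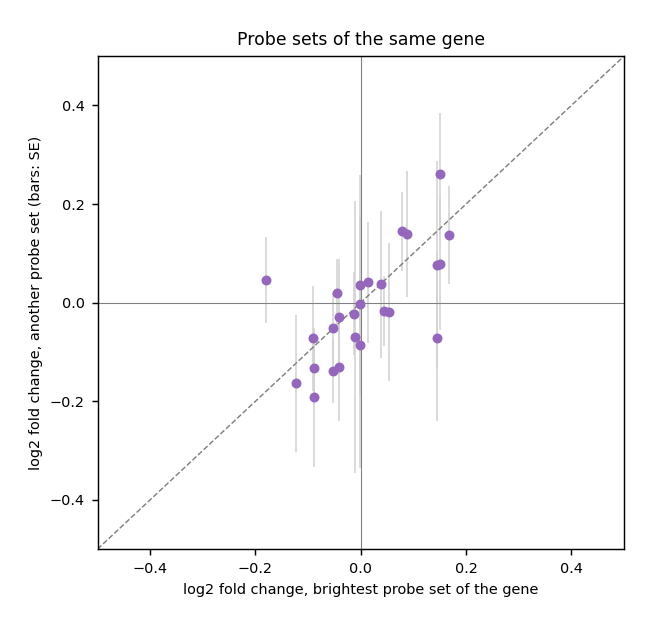
Log2 fold change, PRDM2 knockdown over GFP control, of 26 further probe sets (vertical axis, bars are SE) against that of the brightest probe set of the same gene (horizontal axis), for probe sets above 16 units on every array. The dashed line marks equal values. All points lie between -0.19 and 0.26 on the vertical axis, and the point furthest left is Psme3, at 0.05.

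Of the surrounding pathway, a list of 35 genes chosen for their place in ubiquitin supply, proteasome assembly, transcription and substrate delivery, 26 were measured by a probe set of their own. With all arrays 0 of 26 passed an adjusted p of 0.05 (limma), against 0% of all genes, and 0 an unadjusted p of 0.05, against 3.3%. Without GFP control array 2 the counts were 0, against 1.6% of all genes, and 1, against 13.4%. The median log2 fold change was 0.03, with 18 on the higher and 8 on the lower side and a range of -0.08 to 0.28. Of all genes, 48.8% were on the higher side, and 46.8% without GFP control array 2. Without that array Psmb8, Psmb10, Sem1, Uba6 and Rad23b turned to the lower side, and Txnl1, Ubqln2 and Ufd1 to the higher side. The top of the range, the muscle ubiquitin ligase Trim63, was hardly bounded (SE 0.39, 95% interval -0.66 to 1.22). It read 7.38, 7.88 and 7.35 in the knockdown group and 6.41, 8.03 and 7.33 in the control group. Without GFP control array 2 it stood at 0.66 (SE 0.29). Nfe2l1, the transcription factor of the subunit genes, had the smallest p of the list. It read 8.02, 8.11 and 8.16 on PRDM2 knockdown arrays 1, 2 and 3, against 7.54, 8.05 and 7.90 on GFP control arrays 1, 2 and 3. The groups overlapped through GFP control array 2, with a log2 fold change of 0.27 (SE 0.14, 95% interval -0.06 to 0.60), or 0.38 (SE 0.13, adjusted p = 0.27) without that array and 0.13 without GFP control array 1. Nploc4, a cofactor of the segregase that pulls tagged proteins out of complexes, and Psmg1, a chaperone of alpha ring assembly, came next, at -0.07 (SE 0.08) and -0.07 (SE 0.09).

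The bases before the transcription start of the subunit genes were searched for the letters that Nfe2l1 is known to bind, since that factor links the subunits to each other. RefSeq promoters of build GRCm38.p6 were found for 35 of the 42 genes, and the 250 bases before each start were searched on both strands. TGACNNNGC was present in 5 of 35 members, or 14.3%, against 11.5% of 27025 genes. The CCAAT box was present in 15 of 35, or 42.9%, against 37.5%, and the core of the interferon-stimulated response element in 3 of 35, or 8.57%, against 3.46%. No match of any of the 3 motifs in the members overlapped a match of another. The 5 windows with TGACNNNGC follow, in capitals where the letters match on either strand, with up to 30 bases on each side.
Psmb5: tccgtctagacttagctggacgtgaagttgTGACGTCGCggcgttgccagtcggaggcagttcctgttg
Psmb6: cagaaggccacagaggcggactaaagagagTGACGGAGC
Psmc6: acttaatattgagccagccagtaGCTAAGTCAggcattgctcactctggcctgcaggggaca
Psmd12: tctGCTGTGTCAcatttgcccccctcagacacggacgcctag
Psmd9: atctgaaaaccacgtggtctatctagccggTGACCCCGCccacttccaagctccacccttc

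They lie at chr14:54618004-54618072 (minus strand) for Psmb5, chr11:70525318-70525356 (plus strand) for Psmb6, chr14:45329574-45329635 (plus strand) for Psmc6, chr11:107479278-107479319 (plus strand) for Psmd12 and chr5:123228129-123228189 (plus strand) for Psmd9. Each is upstream of the gene's annotated start, and the match ends 38 bases before it in Psmb5, directly at it in Psmb6 and 22 bases before it in Psmd9. In Psmc6 and Psmd12 the letters lie 218 and 238 bases before the start, and in reverse orientation. The values of these genes on the arrays are those given above, with overlapping groups in each, and Psmd12, a lid subunit, read 8.67 to 8.83 in the knockdown group and 8.66 to 8.87 in the control group. A match describes the letters only and does not show binding.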

How the data were processed

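The authors deposited probe set intensities on a linear scale for 45101 probe sets on 6 arrays. Per the submitters' processing notes they used GCOS and PLIER; versions, roles and the scaling between arrays are not given in the sources used here. Per the labels' protocols, biotinylated cRNA was made from 8 ug of Trizol-extracted RNA. Control probe sets (64) and 4 probe sets holding their gene's Entrez number in place of an intensity were left out, leaving 45033. GEO's annotation of the platform gave 1 gene for 34941 probe sets, several for 932 and none here for 9160.

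Values were taken as log2(intensity + 16), so differences of dim genes are understated, and quantile normalized, since upper quartiles differed by 0.15. A gene was its brightest probe set. The two-sided test was that of limma 3.58.1 (lmFit, eBayes) under R 4.3.3, over all 18192 genes, with Benjamini-Hochberg adjustment. The procedure was run on simulated data with independent arrays and planted changes larger than any member's fold change here. That run does not show how it performs at the sizes reported. With 3 arrays a group, their number sets the precision. Members, lists and rules were chosen with earlier results of these data known. Named genes were the catalytic subunits, the smallest p of each role and the 3 highest and 3 lowest fold changes; further genes were named with values after these were seen.

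Same-numbered arrays deviated together from their group means (correlations of 0.34, 0.59 and 0.66 over 18192 genes), all above the 0.1 set for calling numbers paired. Deviations from a group mean cancel out within the group, so likeness of the arrays numbered 2 alone could raise all these correlations. They therefore cannot decide whether every number was paired. Over the proteasome genes the median absolute deviation between the arrays numbered 1 was 0.22. The fit with the number as a block is given beside the fit without it. No label says what a shared number stands for. Promoter sequences are from RefSeq. Alternatives covered scaling, offset, dim genes, probe sets, variance model, block and arrays left out.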

Additional observations from a re-analysis of the deposited data

How the results depend on the processing

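In all 18 alternatives, and in 2 added after seeing the data (without Psmc3ip and Psme3ip1; genes above 16 units on every array), 0 proteasome genes passed an adjusted p of 0.05. The number that passed over all genes ran from 0 to 721 between settings. It was 0 with the deposited scaling, median centring, other offsets, array weights and the replicate block. In those settings 0 members was the only possible outcome. The lowest adjusted p of any member was 0.0905, with both arrays numbered 2 left out and the replicate number as a block, where 721 genes passed over all genes. With the replicate block on all 6 arrays the count was 0, against 0% of all genes, and the median 0.0056. The fit without the block also called 0% of all genes, so the unchanged count is not particular to the members. The median over the members lay between -0.028 and 0.018, and moved by over the SD between arrays (0.033) only with median centring, to -0.028. The count of members whose groups do not overlap was 1 with all arrays, against 7.17% of all genes. With probe sets averaged per gene it was 0, and 1309 of all 18192 genes had groups that did not overlap. It was 3 of 91 with all probe sets separately (7.24% of all probe sets) and 17 with both arrays numbered 2 left out (43.2% of all genes). When 1 array was left out it ranged from 1 to 13. It was 1 without PRDM2 knockdown replicate 1 (13.7% of all genes) and 1 without GFP control replicate 1 (12.2%). It was 6 without PRDM2 knockdown replicate 2 (20.8%) and 2 without PRDM2 knockdown replicate 3 (14.3%). It was 13 without GFP control replicate 2 (30.2%) and 5 without GFP control replicate 3 (13.1%). Leaving out 1 array turned the sign of 3 to 9 of the 42 fold changes, 20 genes in all, and none of the turned values exceeded 0.11 in size. With GFP control replicate 2 left out these were Psma5, Psmb3, Psmc2, Psmc4, Psmd2, Psmd9, Psmd11 and Psmd12. Psmb7 ranged from -0.10 to 0.035, positive only without GFP control replicate 3. Signal limits Psma8 and Psmb11, which stayed near the floor.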

Other observations

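Psmd11, a scaffold subunit of the lid, was covered by 8 probe sets, 4 of them above 16 units on every array, and these ordered the arrays differently. The brightest read 9.78, 9.84 and 9.72 log2 units on PRDM2 knockdown arrays 1, 2 and 3, against 9.84, 9.83 and 9.67 on GFP control arrays 1, 2 and 3. The second was highest on the arrays numbered 2, at 8.998, 9.33 and 8.80 in the knockdown group and 9.06, 9.29 and 8.78 in the control group. The third was lowest there, at 8.72, 8.11 and 8.67 in the knockdown group and 8.69, 8.08 and 8.63 in the control group, and so was the fourth, at 7.41, 6.92 and 7.53 in the knockdown group and 7.69, 6.88 and 7.55 in the control group. The brightest carries the suffix _s_at, so it can also match other transcripts. The transcripts that these probe sets match were not examined.

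Psmb4 showed the same split. Its brightest probe set was highest on the arrays numbered 2, whereas its second read 9.18, 8.76 and 8.99 in the knockdown group and 9.11, 8.79 and 9.10 in the control group, lowest on those arrays.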
